A study of Mus musculus with 2 samples.

Results

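Satellite cells, also called muscle stem cells (MuSCs), lie between a muscle fibre and its basal lamina and are mostly out of the cell cycle in uninjured adult muscle. The 10 genes described here are named as regulators or markers of that quiescent state: the transcription factors Pax7, Foxo1 and Foxo3, the receptor Calcr, the signalling inhibitors Spry1 and Rgs2, the hedgehog co-receptor Gas1, and the surface or matrix proteins Cd34, Chodl and Hmcn2. They were chosen by name, as 10 of the 32285 genes in the count matrices, and all 10 were present in both libraries. Their UMIs (unique molecular identifiers, 1 per captured transcript molecule) were read in every cell class of the sham and the mechanical overload (MOV) plantaris.

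Both libraries came from Pax7rtTA; TRE-H2B-GFP mice 26 weeks old that had drunk doxycycline at 2.0 mg/ml for 2 weeks. In the MOV group, excising the tendon end of the gastrocnemius and part of the soleus loaded the plantaris for 5 days. The sham group had the incision and a probing of the plantaris tendon, with no tissue removed. Cells were sorted as VCAM+ and negative for CD31, CD45 and SCA1. In this mouse the doxycycline-dependent transactivator was inserted at the Pax7 start codon together with a Pax7 coding sequence, so 1 Pax7 allele is engineered in every cell of both groups, and GFP labelling depends on the Pax7 promoter. GFP was not part of the sort. Whether transcripts of the engineered allele are counted as Pax7 was not tested. Each condition was 1 library, in which the study's methods pool several mice and the labels describe a single mouse. No p-value between conditions was therefore possible, and every interval below covers counting error only, not the spread between animals.

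Quiescence in satellite cells is an actively maintained state. Pax7 specifies the lineage, Notch signalling through RBPJ and calcitonin receptor signalling hold cells out of the cycle, Sprouty1 restrains the growth factor signalling that would drive re-entry, and FoxO factors favour exit from the cycle. When fibres are damaged or loaded, satellite cells leave quiescence, divide, and either return to the niche or turn on Myog, the factor of terminal differentiation, and fuse.

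On mm10, in the GENCODE annotation, Pax7 (ENSMUSG00000028736) spans chr4:139737062-139833528 and Calcr (ENSMUSG00000023964) chr6:3685680-3764714. Spry1 (ENSMUSG00000037211) spans chr3:37639947-37644598, Cd34 (ENSMUSG00000016494) chr1:194938819-194961279 and Chodl (ENSMUSG00000022860) chr16:78930948-78951733. Hmcn2 (ENSMUSG00000055632) spans chr2:31314415-31460738, Gas1 (ENSMUSG00000052957) chr13:60174405-60177365 and Rgs2 (ENSMUSG00000026360) chr1:143999338-144004161. Foxo1 (ENSMUSG00000044167) spans chr3:52268336-52353221 and Foxo3 (ENSMUSG00000048756) chr10:42181841-42276755. Spry1, Cd34, Chodl, Hmcn2 and Foxo1 lie on the plus strand and the others on the minus strand, and all 10 are protein-coding.

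The promoter letters of 4 members are shown, Chodl and Hmcn2 because their levels differed most steeply between MuSC states, Pax7 because it defines the lineage, and Gas1 because its level was nearly even over the states. Each is the 250 bases before the RefSeq transcription start, which can lie away from the GENCODE gene end given above, on GRCm38.p6, 5′ to 3′ on the strand of the gene. Chodl (chr16:78930698-78930947, plus strand) and Hmcn2 (chr2:31314082-31314331, plus strand) have the RBPJ core TGGGAA in capitals, and Hmcn2 also has the AP-1 site TGAGTCA in capitals. Pax7 (chr4:139832969-139833218, minus strand) and Gas1 (chr13:60177536-60177785, minus strand) have the GC box GGGCGG or its reverse complement in capitals.
Chodl: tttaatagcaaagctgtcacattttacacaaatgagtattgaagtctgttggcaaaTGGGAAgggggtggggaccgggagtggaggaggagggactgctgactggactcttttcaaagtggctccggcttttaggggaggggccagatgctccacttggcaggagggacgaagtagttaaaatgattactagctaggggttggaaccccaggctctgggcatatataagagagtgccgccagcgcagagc
Hmcn2: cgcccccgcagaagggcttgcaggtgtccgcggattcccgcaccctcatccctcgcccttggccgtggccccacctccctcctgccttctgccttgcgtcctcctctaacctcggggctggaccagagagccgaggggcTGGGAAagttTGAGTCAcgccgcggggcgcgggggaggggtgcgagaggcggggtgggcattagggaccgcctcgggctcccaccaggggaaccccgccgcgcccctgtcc
Pax7: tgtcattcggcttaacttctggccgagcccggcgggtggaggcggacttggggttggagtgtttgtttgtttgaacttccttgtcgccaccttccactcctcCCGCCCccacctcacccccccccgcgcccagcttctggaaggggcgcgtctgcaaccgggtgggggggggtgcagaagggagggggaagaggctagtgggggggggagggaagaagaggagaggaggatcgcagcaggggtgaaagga
Gas1: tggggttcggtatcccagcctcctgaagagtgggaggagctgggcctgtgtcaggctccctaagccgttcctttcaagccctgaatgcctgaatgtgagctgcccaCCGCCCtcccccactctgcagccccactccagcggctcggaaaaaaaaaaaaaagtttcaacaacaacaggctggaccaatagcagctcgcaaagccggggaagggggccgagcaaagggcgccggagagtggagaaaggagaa

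Searched on both strands in the window from 250 bases before to 50 after the start, TGGGAA was found in 25.6% of 32851 mouse promoters and in 2 of the 10 members, Chodl and Hmcn2. The AP-1 site was found in 5.2% of promoters and, among the members, in Hmcn2 alone. The GC box was found in 35.7% of promoters and in 7 members: Pax7, Calcr, Spry1, Gas1, Rgs2, Foxo1 and Foxo3. The E-box CAGCTG, a palindrome bound by myogenic factors, was found in 16.3% of promoters and in Rgs2. The FoxO site GTAAACA, present in 3.65% of promoters, was in no member. A match of a short motif is a description of these letters and not evidence of binding. In Hmcn2 the RBPJ core and the AP-1 site share no base.

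The sham matrix held 1100 cells with 7302661 UMIs and the MOV matrix 3854 cells with 88498487 UMIs, so the sham values rest on far fewer counts. After removal of cells with 10% or more mitochondrial UMIs, 738 sham and 3060 MOV cells were kept. MuSCs were cells with at least 2 UMIs of Pax7, Myf5 and Myod1 together and no stronger signature of another type, which gave 93 sham and 1417 MOV MuSCs. Within them, cycling MuSCs had at least 500 CPM (UMIs scaled to a total of 1000000) of 10 cell cycle genes. Of the rest, quiescent-marker MuSCs had at least 200 CPM of a set of quiescent-marker genes that includes Chrdl2 and Dpt, and matrix MuSCs at least 200 CPM of Gpc3 and Islr together. Dpt, Gpc3 and Islr stand in the study's marker lists for clusters of these same cells, and Chrdl2 is named there as a quiescence marker. Quiescent-marker cells made up 68 of 93 sham MuSCs (73.1%, exact 95% interval 62.9 to 81.8) and 318 of 1417 MOV MuSCs (22.4%, 20.3 to 24.7), whereas cycling cells made up 10 sham MuSCs (10.8%) and 670 MOV MuSCs (47.3%). Matrix MuSCs numbered 1 and 190, other MuSCs 14 and 239, and Myog cells 1 and 166, in sham and MOV. Vcam1, Cdh15, Itga7 and Sdc4, which the gate did not use, were at 809, 116, 44.3 and 2540 CPM in sham quiescent-marker MuSCs and at 13.6, 0, 0 and 143 CPM in sham fibro-adipogenic cells. The sort had not left MuSCs alone: 506 of the 738 sham droplets carried the transcripts of adult fibres, and 604 MOV cells were tenocytes.

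The 2 matrices shared 44 cell barcodes, 39 of them deeper in sham and 5 deeper in MOV, by 23.1 to 287 times. They included 21 of the 57 MOV fibre droplets, which shared their barcode with a sham fibre droplet, and 6 of the 10 sham cycling MuSCs, but 1 sham and 0 MOV quiescent-marker MuSCs. Levels of Pax7, Chodl and Cd34 in sham cycling MuSCs and of Chodl in MOV fibre droplets are therefore given with and without these barcodes. Without them, 4 of the 83 sham MuSCs left were cycling. Of 747 MOV MuSCs outside the cycling class, 222 lay within 2-fold of the quiescent-marker cut, against 13 of 83 in sham, so the MOV class grades into its neighbours more than the sham class does.

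Pax7, the paired-box factor that marks the satellite cell lineage, was part of the MuSC gate, so its level inside that gate is a description. In quiescent-marker MuSCs it stood at 189 CPM (95% Poisson interval 156 to 228) in sham and 134 CPM (124 to 145) in MOV. In MOV it stood at 115 CPM in matrix, 87.6 CPM in other, 60.3 CPM in cycling MuSCs and 21.6 CPM in Myog cells. Along this MOV order, only the neighbouring quiescent-marker and matrix levels had overlapping intervals. The 14 other MuSCs of sham were at 220 CPM (164 to 289), overlapping the sham quiescent-marker level. Sham fibre droplets held 7 Pax7 UMIs in 506 droplets, 2.23 CPM (0.898 to 4.6), and 0 were found in 29 sham fibro-adipogenic cells, which by a floor of 3 UMIs allows up to 10.2 CPM.

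Foxo1 and Foxo3, forkhead factors that drive genes of cell cycle exit and proteolysis, were low in all MuSC states. Foxo1 was at 20.5 CPM (10.6 to 35.8) in sham and 20.8 CPM (16.9 to 25.3) in MOV quiescent-marker MuSCs, and at 21.7 CPM (17.6 to 26.6) in MOV matrix MuSCs. It was lower in MOV cycling MuSCs, at 12.5 CPM (11.3 to 13.9), an interval apart from both MOV levels but within the wide sham one. Foxo3 was at 18.8 CPM (9.37 to 33.6) in sham and 17.4 CPM (13.9 to 21.6) in MOV quiescent-marker MuSCs, and at 14.6 CPM (13.3 to 16.1) in MOV cycling MuSCs. The sham values rest on 12 Foxo1 and 11 Foxo3 UMIs, and the log2 differences between the libraries have intervals of -0.85 to 1.02 for Foxo1 and -1.02 to 0.95 for Foxo3, so a 2-fold difference in at least 1 direction lies within each. Of the MOV MuSC and Myog classes, Foxo3 was lowest in Myog cells, at 8.7 CPM (6.73 to 11.1), and Foxo1 in the same cells was at 15.6 CPM (12.9 to 18.6).

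Calcr, the calcitonin receptor, was a sparse transcript. It was at 23.9 CPM (13.1 to 40.1; 14 UMIs) in sham and 8.61 CPM (6.18 to 11.7; 41 UMIs) in MOV quiescent-marker MuSCs. In MOV it was at 3.47 CPM in matrix, 2.28 CPM in other and 1.72 CPM in cycling MuSCs, and 2 UMIs were found in 166 Myog cells. The sham quiescent-marker level stood clear of the MOV one, the MOV cycling level of the Myog level of 0.264 CPM, and the MOV quiescent-marker level of the MOV matrix level (1.94 to 5.72). The intervals of the MOV matrix, other and cycling levels overlapped from one to the next, and those of the sham other and cycling MuSCs, from 1 and 2 UMIs, overlapped all of these. No Calcr UMI was found in 506 sham fibre droplets or in the fibro-adipogenic cells of either library.

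Spry1, an intracellular inhibitor of receptor tyrosine kinase signalling, was at 130 CPM (102 to 162) in sham and 105 CPM (95.8 to 114) in MOV quiescent-marker MuSCs. Its level in MOV matrix MuSCs, 103 CPM (94 to 113), could not be distinguished from the quiescent-marker level. Other, Myog and cycling cells of MOV were lower, at 53.1, 39.4 and 34.9 CPM. Rgs2, which speeds the switching off of G protein signalling, was at 25.6 CPM (14.3 to 42.2) in sham and 21.2 CPM (17.3 to 25.8) in MOV quiescent-marker MuSCs, 20 CPM (17 to 23.5) in MOV Myog cells and 11.8 CPM (10.6 to 13.2) in MOV cycling MuSCs. Every neighbouring pair in its order of levels overlapped.

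Gas1, a membrane-anchored protein that binds hedgehog ligands and was named for its induction on growth arrest, was nearly even across the myogenic states. It was at 85.3 CPM (63.3 to 112) in sham and 81.4 CPM (73.5 to 90) in MOV quiescent-marker MuSCs, and at 70.9 CPM (67.9 to 74) in MOV cycling MuSCs. Myog cells of MOV had 57.7 CPM (52.5 to 63.4). The gene was uneven from cell to cell: the top 10% of sham quiescent-marker MuSCs held 78% of its UMIs, with 1 cell at 2313 CPM, and the median cell had 0.

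Chodl, a C-type lectin membrane protein known as a satellite cell marker, was the most abundant member by UMIs in quiescent-marker MuSCs, at 474 CPM (420 to 533) in sham and 287 CPM (272 to 302) in MOV. It was at 102 CPM (92.9 to 112) in MOV matrix, 50.3 CPM in other and 44.7 CPM (42.3 to 47.2) in cycling MuSCs, and at 9.1 CPM (7.08 to 11.5) in Myog cells. No Chodl UMI was found in 506 sham fibre droplets, while 3 of 57 MOV fibre droplets held 8 UMIs. Hmcn2, hemicentin 2, a large extracellular matrix protein, had the same order of MOV states: 107 CPM (97.6 to 116) in quiescent-marker, 42.1 CPM in matrix, 22.2 CPM in other and 15.6 CPM (14.2 to 17.1) in cycling MuSCs, then 8.04 CPM in Myog cells. In sham quiescent-marker MuSCs it was at 249 CPM (210 to 293). In the sham median cell of that class Hmcn2 was at 197 CPM and Chodl at 414 CPM, so both were carried by most cells rather than by a few.

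Cd34, a sialomucin of haematopoietic, endothelial and mesenchymal progenitors that is also found on quiescent satellite cells, was modest in MuSCs. It was at 63.1 CPM (44.4 to 87) in sham and 39 CPM (33.6 to 45.1) in MOV quiescent-marker MuSCs. The MOV matrix class, at 9.02 CPM (6.42 to 12.3), lay below the MOV cycling class, at 22.5 CPM (20.8 to 24.2), an order that no other member showed with intervals apart. Fibro-adipogenic cells held far more, 694 CPM in sham and 474 CPM in MOV.

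**Figure D1:**
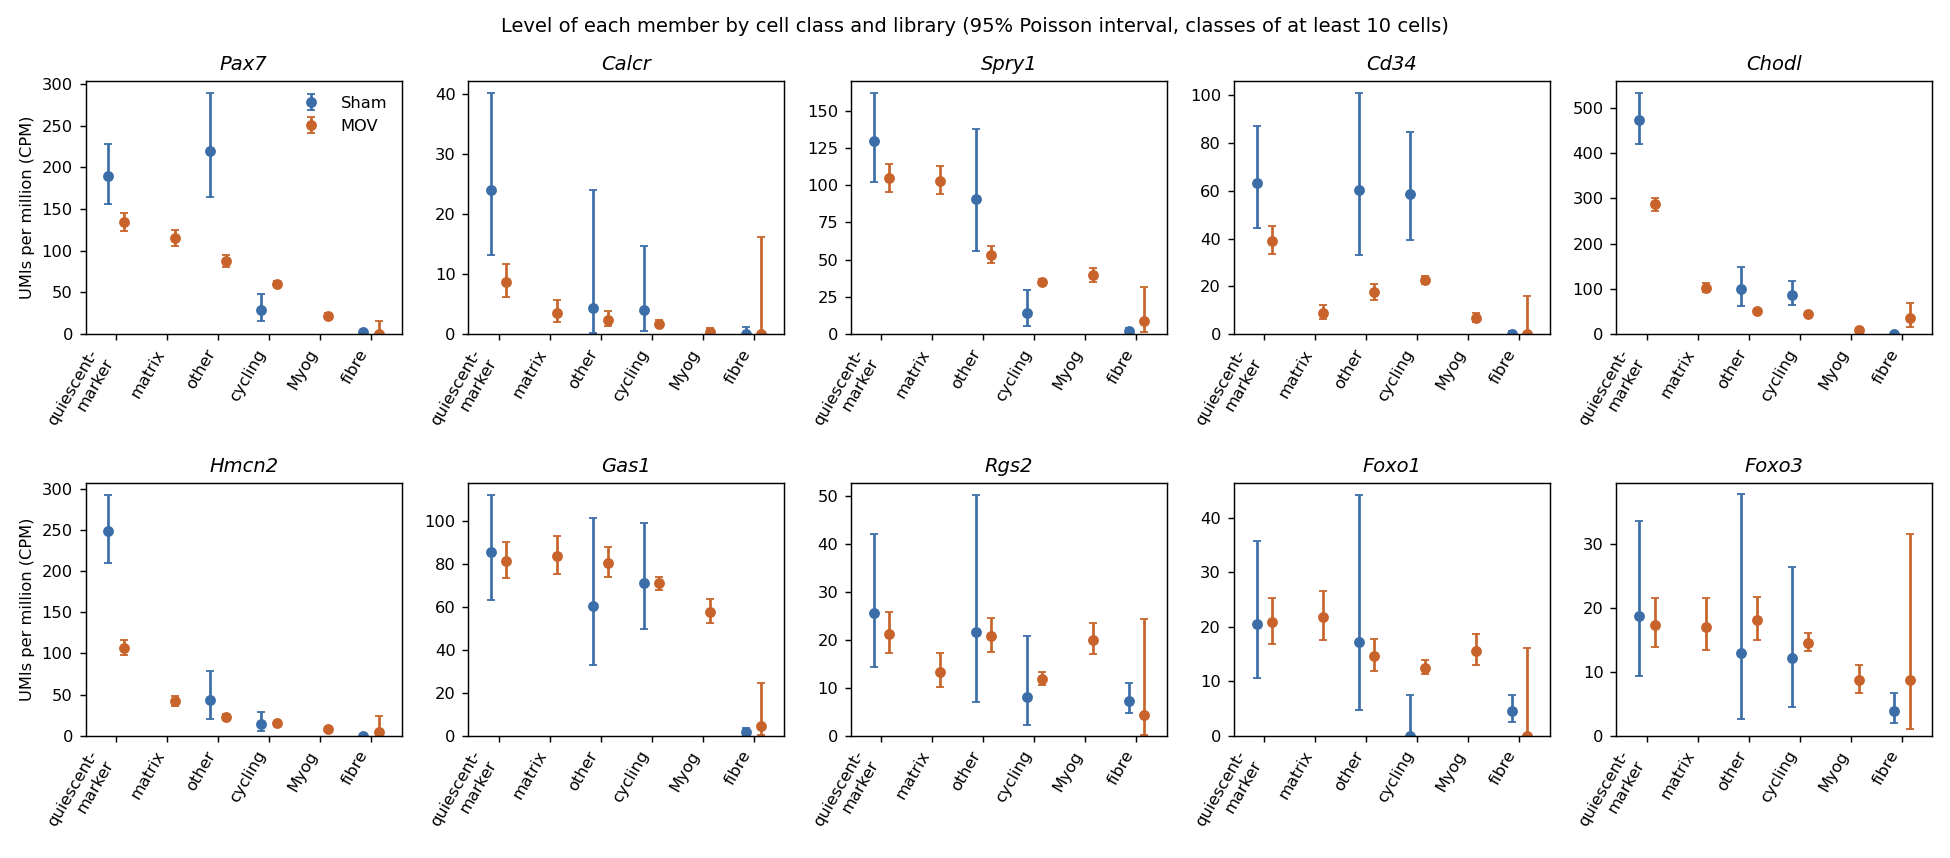
Level of each member (y axis, CPM, a separate linear scale per gene) by cell class (x axis) in sham (blue) and MOV (orange), with 95% Poisson intervals for classes of at least 10 cells. Chodl and Hmcn2 drop from the quiescent-marker class through matrix, other and cycling MuSCs to Myog cells in MOV, whereas Gas1 lies between 57.7 and 83.7 CPM in these 5 MOV classes.

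The shares of each transcript by cell type are those of kept cells sorted as VCAM+ and negative for CD31, CD45 and SCA1. They are not the shares that a bulk measurement of whole muscle would give. In MOV, MuSCs held 93% of Pax7 UMIs, 89.1% of Calcr, 71.6% of Chodl, 67.2% of Spry1 and 65.4% of Hmcn2, while MuSCs held 53.3% of all UMIs. For Cd34 the MuSC share was 14.6%, and tenocytes held 38.5% and fibro-adipogenic cells 33.3% of its UMIs. In sham, where MuSCs held 22.8% of all UMIs, they held 92% of Pax7 and 81% of Calcr but 43% of Hmcn2 UMIs, of which fibro-adipogenic cells held 36.7%. Sham fibro-adipogenic cells had 473 CPM of Hmcn2 (398 to 559), above the 249 CPM of sham quiescent-marker MuSCs, while MOV fibro-adipogenic cells had 34.5 CPM (29.4 to 40.1). Tenocytes were the main site of Chodl outside the lineage, with 240 CPM (194 to 294) in sham and 50.8 CPM (47.6 to 54.1) in MOV. Pax7 and Calcr thus had the highest MuSC shares. Pax7 UMIs are part of what made a cell a MuSC, so the Pax7 share is largely set by the gate. Cd34, Gas1, Rgs2, Foxo1 and Foxo3 had 22.4% (Foxo1) to 38.5% (Cd34) of their UMIs in tenocytes in the MOV library. Tenocytes held 21.9% of all UMIs there.

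**Figure D2:**
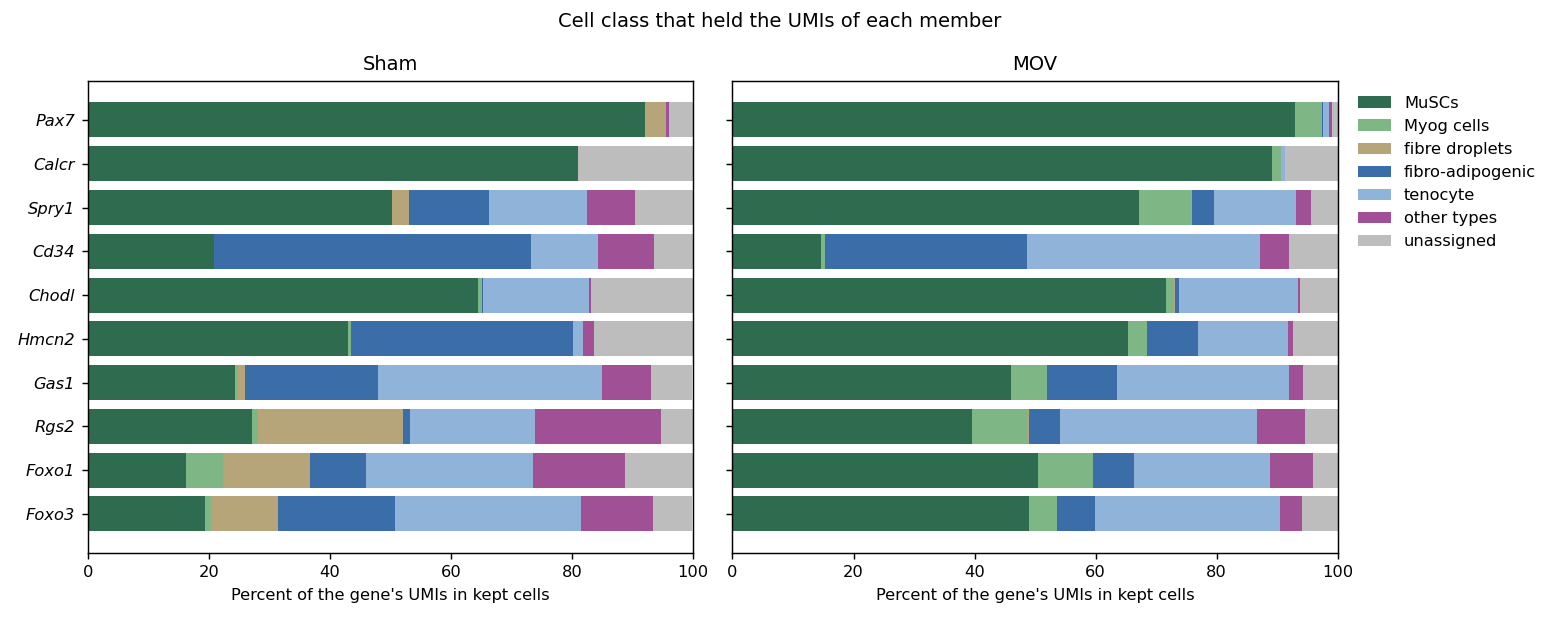
Percent of the UMIs of each member (x axis) that fell in each cell class (colours) among kept cells of the sham (left) and MOV (right) library. Pax7 and Calcr bars are mostly MuSCs in both libraries, for Pax7 largely because it is in the MuSC gate, whereas 14.6% of MOV Cd34 UMIs came from MuSCs.

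The first comparison sets quiescent-marker MuSCs of MOV against those of sham, in 2 separate captures that follow no cell over time. Between MOV and sham quiescent-marker MuSCs, 2 of 10 members were lower past 2-fold with an interval that left out 0, and 0 were higher. Over the 9172 genes with at least 20 UMIs, 5.92% were lower and 12.1% higher by the same rule. Calcr differed by -1.47 on the log2 scale (95% interval -2.38 to -0.48) and Hmcn2 by -1.22 (-1.49 to -0.95). Chodl differed by -0.73 (-0.91 to -0.53), Cd34 by -0.69 (-1.21 to -0.14) and Pax7 by -0.50 (-0.79 to -0.19), short of 2-fold. The intervals of Spry1, Gas1, Rgs2, Foxo1 and Foxo3 included 0. The median log2 ratio of the members was -0.41, and that of all genes tested was 0.18, so relative to the median gene each member stood 0.18 lower than its own ratio. Hmcn2 lost its call with the state cuts doubled (-0.94) and with cells weighted equally (-0.97). Without the shared barcodes 2 members passed.

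The classes compared were not alike in other measures. The gate gene Chrdl2 was at 300 CPM (257 to 348) in sham and 67.8 CPM (60.6 to 75.6) in MOV quiescent-marker MuSCs, the gate gene Dpt at 259 CPM (220 to 304) and 170 CPM (158 to 182), Myod1 at 989 and 155 CPM, and the 7 immediate-early genes at 3123 and 2332 CPM. The median mitochondrial share was 5.78% in sham and 3.01% in MOV cells of the class, and their median depth 7912.5 and 13801 UMIs. Their part in the differences between libraries was not tested. Chodl and Hmcn2 were themselves among the top 10 genes by fold of the MOV quiescent-marker class. The adult fibre genes were at 1772 CPM in sham and 738 CPM in MOV.

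Within matched bands of the gate genes, a split chosen after the data had been seen, the members separated. The band of 200 to 500 CPM held 121 MOV cells but 1 sham cell, so it was not compared. Chodl was at 179 CPM and Hmcn2 at 63.9 CPM in those MOV cells. The MOV class thus held a larger part of cells low in the gate genes than the sham class. In cells with 1000 CPM or more of the gate genes (42 sham, 96 MOV), Chodl was at 475 CPM in sham and 464 CPM in MOV, a log2 difference of -0.04 (-0.29 to 0.23), and Pax7 was at 161 and 169 CPM. Hmcn2 in that band was at 229 and 174 CPM, a difference of -0.39 (-0.78 to 0.01), and Calcr at 29.3 and 13 CPM, -1.18 (-2.45 to 0.16). Neither remained past 2-fold by the rule there. In the band of 500 to 1000 CPM (25 sham, 101 MOV), Hmcn2 still differed by -1.24 (-1.66 to -0.81), Pax7 by -0.78, Spry1 by -0.78 and Chodl by -0.57 (-0.87 to -0.25). Gas1 went from 162 to 92.8 CPM in the lower band and from 41.1 to 84.4 CPM in the upper band (1.04), on 36 and 14 sham UMIs. Spry1 was at 88 CPM in sham and 147 CPM in MOV in the upper band (0.74, 0.17 to 1.35). The ratios of both Gas1 and Spry1 thus had opposite signs in the bands, with intervals that left out 0. Pax7, Cd34, Rgs2, Foxo1 and Foxo3 also changed sign, but without intervals that left out 0 in both bands.

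Among all non-cycling MuSCs of MOV, the level of Chodl increased with each band of the gate genes, from 33.3 CPM in the 201 cells under 50 CPM to 87.1, 175, 331 and 469 CPM. Hmcn2 went in the same order from 16.7 to 30.1, 72.7, 123 and 175 CPM. Calcr went from 1.23 to 3.43, 5.9, 10.9 and 12.8 CPM, and Cd34 from 12.4 to 15.9, 24.5, 42.9 and 53.1 CPM. Pax7 was graded less, from 87.8 to 170 CPM, and Gas1 lay between 76.1 and 87.8 CPM in all 5 bands. Median depth in the same bands went the other way, from 24588 to 11031.5 UMIs per cell, and its part in the gradient was not tested. In sham the bands below 500 CPM held 2, 8 and 6 cells. From the sham band of 500 to 1000 CPM to the top band, Chodl went from 483 to 475 CPM and Hmcn2 from 293 to 229 CPM. Cd34 went from 81.2 to 46.9 CPM, Pax7 from 248 to 161 CPM and Gas1 from 162 to 41.1 CPM. Calcr went from 18.1 to 29.3 CPM, on 4 and 10 UMIs.

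**Figure D3:**
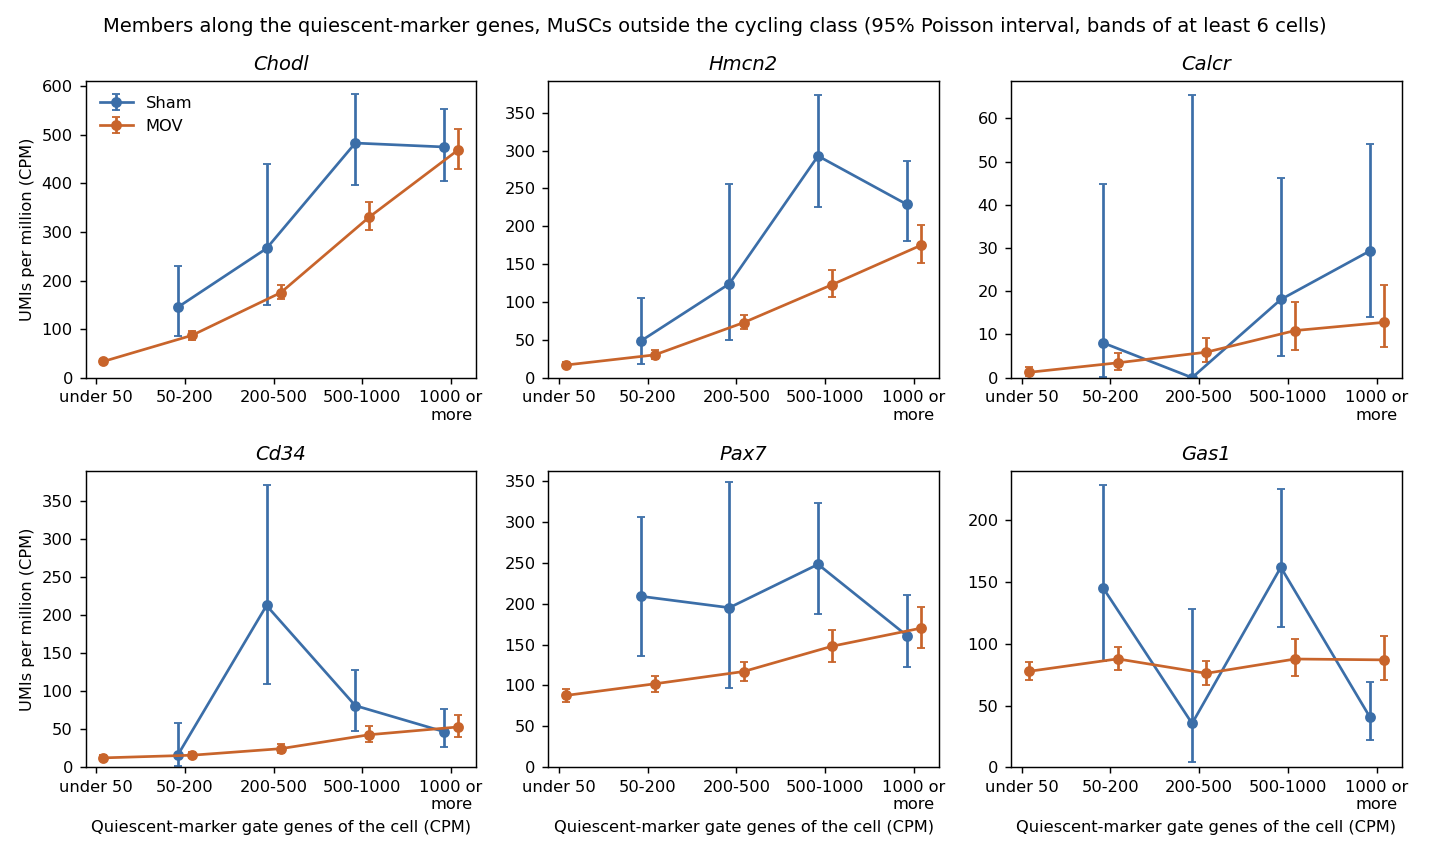
Levels of 6 members (y axes, CPM, with 95% Poisson intervals) against bands of the summed level of the quiescent-marker gate genes in the cell (x axes, CPM), in non-cycling MuSCs of sham (blue) and MOV (orange). Chodl at 1000 CPM or more is at 475 CPM in sham and 469 CPM in MOV (98 MOV cells, of which 96 are in the quiescent-marker class), and Gas1 in MOV is flat.

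Shares of cells with at least 1 UMI describe how widely a gene was carried, after each cell was thinned to 2000 UMIs. Thinning left out 0 quiescent-marker MuSCs and 1 fibro-adipogenic cell per library. Median depths before it were 7912.5 and 13801 UMIs in quiescent-marker MuSCs and 9821 and 29842 UMIs in fibro-adipogenic cells, in sham and MOV. A Chodl UMI was found in 60.3% of sham quiescent-marker MuSCs (exact interval 47.7 to 72) and 38.1% of MOV ones (32.7 to 43.6), against 0% and 2.68% in fibro-adipogenic cells. For Hmcn2 the shares were 36.8% (25.4 to 49.3) and 19.8% (15.6 to 24.6), and for Pax7 26.5% and 23.3%. Before thinning, Chodl was found in 92.6% and 82.1% of these cells and Hmcn2 in 76.5% and 69.8%. Rgs2, Foxo1, Foxo3 and Calcr were found in at most 10.3% of thinned cells in either library, a level near that of 1 UMI from which no difference was read. For Cd34, Gas1 and Hmcn2 the fibro-adipogenic share is no background, since those cells express the genes.

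Cycling MuSCs were compared with quiescent-marker MuSCs of the MOV library. That reference was chosen for high gate genes, so a gene that follows them would be lower in cycling MuSCs by construction. The ratios cannot separate the cell cycle from this gate. Other MuSCs of MOV, which passed no state gate, had 50.3 CPM of Chodl and 2.28 CPM of Calcr. Cycling MuSCs had 44.7 and 1.72 CPM, with overlapping intervals. Hmcn2, Spry1 and Pax7 were lower in cycling than in other MuSCs, with intervals apart. Relative to quiescent-marker MuSCs of the MOV library, 5 of 10 members were lower past 2-fold in cycling MuSCs and 0 were higher, beside 8.8% lower and 13.1% higher of 12527 genes. Hmcn2 was lower by 6.84-fold (log2 ratio -2.77, -2.96 to -2.59) and Chodl by 6.41-fold (-2.68, -2.79 to -2.57). Calcr was lower by 5.01-fold (-2.33, -2.95 to -1.70), Spry1 by 3-fold (-1.58, -1.74 to -1.43) and Pax7 by 2.22-fold (-1.15, -1.28 to -1.02). Cd34, Rgs2 and Foxo1 differed by -0.80, -0.84 and -0.73, short of 2-fold, and Gas1 by -0.20 (-0.36 to -0.04). The interval of Foxo3 included 0 (-0.59 to 0.11). With cells weighted equally Pax7 fell short of 2-fold (-0.95), with the state cuts doubled Cd34 passed it (-1.10), and with the cuts halved Rgs2 reached it (interval -1.30 to -0.69).

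Levels did not fall steadily with the cycle genes. By bands of the 10 cycle genes in all MOV MuSCs, Chodl was at 168 CPM under 100 CPM, then 104, 45.1 and 38.2 CPM, and again at 142 CPM in the 51 cells at 5000 CPM or more. Pax7 was at 116, 102, 53, 59.2 and 116 CPM over the 5 bands, and Hmcn2 at 69.2, 37, 12.1, 15.1 and 40.7 CPM. The median depth of the top band was 25673 UMIs, against 40755 UMIs in the band below it and 16266 UMIs in the lowest band. The part of depth was not tested. In sham the 10 cycling MuSCs had Pax7 at 28.4 CPM (15.5 to 47.7), Chodl at 87.3 CPM (63.2 to 118) and Cd34 at 58.9 CPM (39.4 to 84.5), with 6 of the 10 among the shared barcodes and a median depth of 51188.5 UMIs. Without them, the 4 left had Pax7 at 61.3 CPM (24.6 to 126), Chodl at 219 CPM (142 to 323) and Cd34 at 43.8 CPM (14.2 to 102).

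Matrix MuSCs, which carried more of the proteoglycan gene Gpc3 and Islr than of the quiescent-marker genes, separated the members differently. In MOV they still held 131 CPM of the quiescent-marker genes, beside 712 CPM in quiescent-marker and 49.6 CPM in other MuSCs. Relative to MOV quiescent-marker MuSCs, 4 of 10 were lower past 2-fold and 0 higher, beside 3.61% lower and 5.91% higher of 10429 genes. Cd34 was lower by 4.33-fold (-2.11, -2.65 to -1.61), Chodl by 2.8-fold (-1.49, -1.65 to -1.33), Hmcn2 by 2.53-fold (-1.34, -1.59 to -1.09) and Calcr by 2.48-fold (-1.31, -2.27 to -0.43). Pax7 differed by -0.23 (-0.40 to -0.06) and Rgs2 by -0.66 (-1.15 to -0.18), while the intervals of Spry1, Gas1, Foxo1 and Foxo3 included 0. The interval of Spry1, -0.21 to 0.17, leaves out a 2-fold difference in either direction. The matrix gate required falling outside the quiescent-marker gate, so a gene that follows the quiescent-marker genes would be lower there by construction.

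Myog cells, which have begun terminal differentiation, had the lowest levels of the MOV MuSC and Myog classes for most members. Spry1, Rgs2 and Foxo1 were lower in cycling MuSCs, at 34.9, 11.8 and 12.5 CPM, than in Myog cells, at 39.4, 20 and 15.6 CPM. Of these pairs only the Rgs2 intervals were apart, and those of Spry1 and Foxo1 overlapped. The quiescent-marker reference was chosen for high gate genes, so the limit given for cycling MuSCs holds here too. The reference also had to pass the MuSC gate, which counts Pax7, and Myog cells did not. Part of the Pax7 ratio below therefore follows from the gate. Relative to MOV quiescent-marker MuSCs, 7 of 10 were lower past 2-fold and 0 higher, beside 13.9% lower and 15.7% higher of 11138 genes. Chodl was lower by 31.5-fold (-4.98, -5.35 to -4.63), Hmcn2 by 13.3-fold (-3.73, -4.14 to -3.34), Pax7 by 6.2-fold (-2.63, -2.89 to -2.38), Cd34 by 5.7-fold (-2.51, -2.98 to -2.06) and Spry1 by 2.66-fold (-1.41, -1.62 to -1.20). Calcr, with 2 UMIs in Myog cells, differed by -5.03 with an interval from -8.12 to -3.08. Foxo3 was at the threshold, 2-fold lower (interval -1.49 to -0.52 in log2), and fell short of it in 7 alternatives. Rgs2 (-0.08, -0.45 to 0.30) had an interval including 0, and Foxo1 (-0.42) and Gas1 (-0.50) differed by less than 2-fold. Myog cells were deeper, with a median of 41563.5 UMIs, and held 11925 CPM of adult fibre genes against 738 CPM in quiescent-marker MuSCs.

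**Figure D4:**
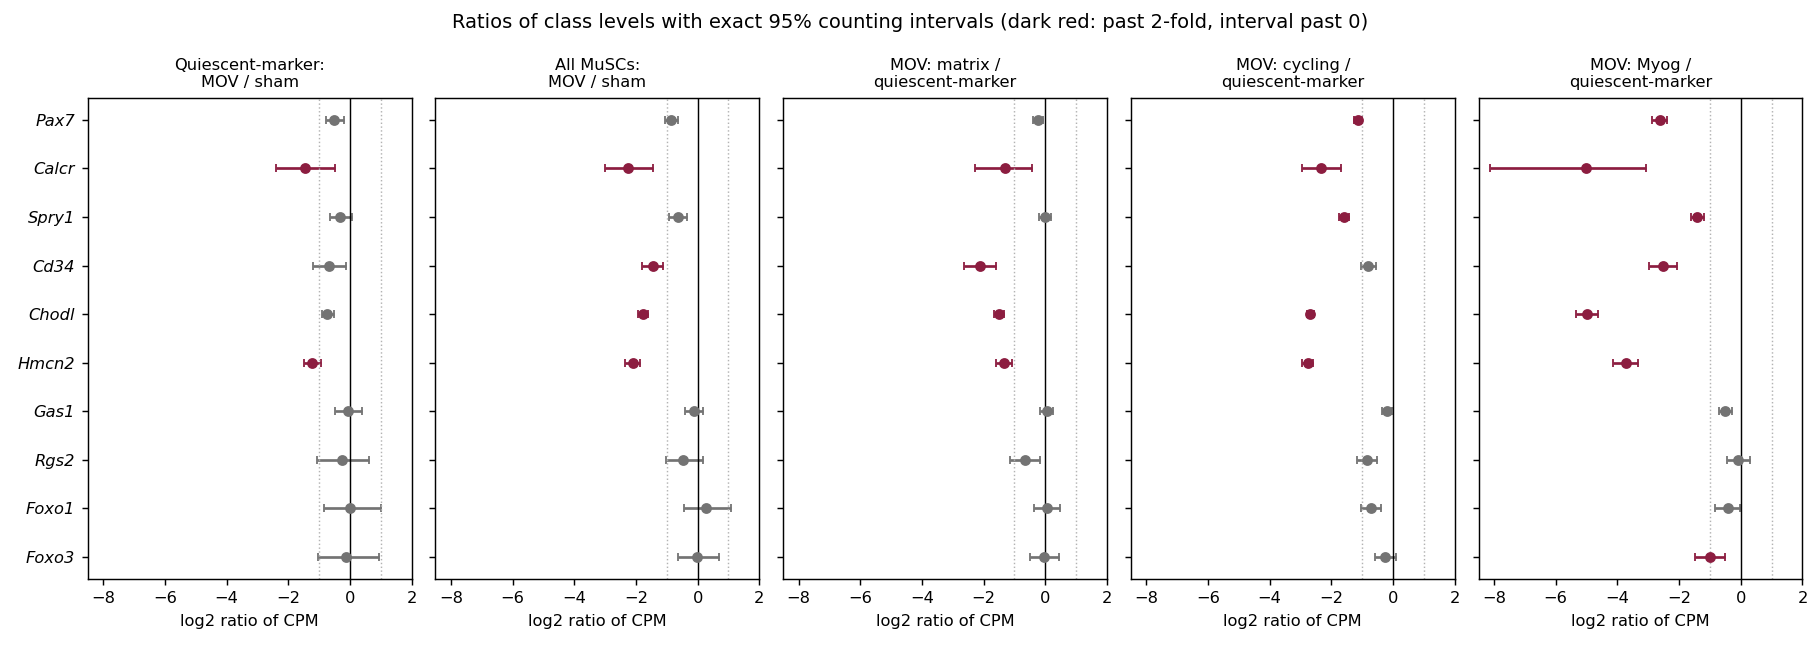
Log2 ratios of class levels (x axes) for the 10 members (rows) in 5 comparisons (panels), with exact 95% counting intervals; dark red marks ratios past 2-fold with an interval past 0 and dotted lines mark 2-fold. Chodl moves from -0.73 between libraries to -4.98 in Myog cells, while Gas1 stays between -0.50 and 0.04.

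Fibre droplets, the largest class of the sham library, address how far the members are absent from fibres. All 9 members with at least 20 UMIs were lower past 2-fold in sham fibre droplets than in sham quiescent-marker MuSCs, but 41.5% of 7297 genes were lower and 26.1% higher, and the median log2 ratio of all genes was -0.52. Chodl, Hmcn2, Cd34 and Calcr had no UMI in 3133938 fibre UMIs. Set at a floor of 3 UMIs over the class, they would be 495-, 260-, 65.9- and 24.9-fold lower, with Calcr under the 20 UMI minimum. The upper ends of their exact log2 intervals, which also cover counting error in the reference, were -8.64, -7.71, -5.67 and -4.15. Pax7 was lower by 84.8-fold (log2 ratio -6.41, -7.75 to -5.31). The reference, unlike the fibre droplets, was gated on Pax7, so part of this ratio follows from the gate. Rgs2, Foxo1 and Foxo3 were nearer, at -1.80 (-2.80 to -0.76), -2.20 (-3.42 to -0.95) and -2.29 (-3.60 to -0.97). They rest on 23, 14 and 12 fibre UMIs. With Pax7 out of the MuSC gate 6 members passed, without Rgs2 (-1.28, -2.50 to 0.09) and Foxo1 (-1.59, -3.06 to 0.08), and Foxo1 did not pass at a 5% mitochondrial limit (-1.31, -3.48 to 1.89). The 57 MOV fibre droplets had a median of 838 UMIs and are described only, with Chodl at 35 CPM (15.1 to 68.9), and at 37.4 CPM (16.2 to 73.7) in the 36 outside the shared barcodes.

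Over all MuSCs, where the mix of states differs between libraries, 4 of 10 members were lower past 2-fold in MOV and 0 higher, beside 6.13% lower and 6.99% higher of 13064 genes. Calcr differed by -2.25 (-2.99 to -1.43), Hmcn2 by -2.10 (-2.34 to -1.86), Chodl by -1.77 (-1.93 to -1.60) and Cd34 by -1.46 (-1.79 to -1.11). Pax7 differed by -0.85 (-1.06 to -0.62) and Spry1 by -0.64 (-0.92 to -0.34). Leaving out the shared barcodes removed 10 sham MuSCs, 6 of them cycling, so it also changed the mix of states in sham. Of the 44 shared barcodes 39 were deeper in sham, and which copies were true cells was not tested. Without the shared barcodes, Pax7 differed by -1.29 (-1.53 to -1.05) and Spry1 by -1.12 (-1.42 to -0.80), so 6 members passed. Calcr was then at -2.87 (-3.63 to -2.02), Hmcn2 at -2.76 (-3.00 to -2.52), Chodl at -2.35 (-2.52 to -2.18) and Cd34 at -1.49 (-1.90 to -1.05). With all barcodes kept, Gas1, Rgs2, Foxo1 and Foxo3 had intervals including 0, whereas without the shared barcodes Rgs2 differed by -0.86 (-1.48 to -0.16). With all kept, Foxo3 was at 15.7 and 15.8 CPM in MOV and sham. Sums over a mixture cannot tell fewer cells of a state from less RNA per cell.

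The related genes of the same pathways, 60 in 6 lists, and 7 immediate-early genes, all chosen with earlier results of these data known, are given as counts. Over all genes tested, 12.1% were higher and 5.92% lower between the libraries in quiescent-marker MuSCs, 13.1% and 8.8% in cycling MuSCs and 15.7% and 13.9% in Myog cells, and a list count near these shares is no result about the list. Of the sprouty and FGF feedback genes, 3 of 10 tested were lower past 2-fold and 1 higher in MOV than in sham quiescent-marker MuSCs. Spry2, the sprouty paralog, was at 333 CPM in sham and 83.1 CPM in MOV (4-fold lower, log2 interval -2.25 to -1.75), whereas Spry1 did not pass. Spry4 (-1.50) and the receptor Fgfr1 (-1.11) were the others that were lower, and Etv4, a transcription factor induced by FGF signalling, had no UMI in sham and stood at 7.14 CPM in MOV. The list's summed level was 1334 CPM in sham and 682 CPM in MOV.

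Of the calcitonin receptor axis, 3 of 9 tested were higher in MOV quiescent-marker MuSCs and 0 lower, while Calcr itself was lower. All 3 were type V collagen chains, matrix proteins described as ligands of the calcitonin receptor: Col5a1 was at 51.2 CPM in sham and 135 CPM in MOV (1.40, 0.87 to 1.98), Col5a2 at 104 and 332 CPM (1.67, 1.30 to 2.07) and Col5a3 at 63.1 and 280 CPM (2.15, 1.68 to 2.66). Within MOV, 5 of 10 genes of this axis were lower in cycling than in quiescent-marker MuSCs and 0 higher, with Col5a3 (-1.59), the receptor partner Ramp2 (-1.35) and Col5a1 (-1.27) the most. In Myog cells 6 were lower, with Col5a3 at 29.7 CPM (-3.24, -3.45 to -3.03) and Calcrl at -2.74, and 2 were higher, including Ramp1 (4.03), which had 1 UMI in quiescent-marker MuSCs. Of 10 FoxO family genes and targets tested, 0 were past 2-fold between libraries in quiescent-marker MuSCs. In cycling MuSCs 3 of 11 were lower, Pik3ip1 (-1.86), Bcl6 (-1.09) and Irs2 (-1.08).

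Of 12 other quiescence genes, which include Notch targets, 1 was higher and 1 lower in MOV than in sham quiescent-marker MuSCs. The higher one was Cdkn1c, an inhibitor of cyclin-dependent kinases, at 17.1 CPM in sham and 96.4 CPM in MOV (5.65-fold, log2 interval 1.61 to 3.57). The lower one was Tek, an angiopoietin receptor, at 15.4 and 5.88 CPM (-1.39, -2.51 to -0.12). In Myog cells 7 of the 12 were lower, led by the receptor gene Notch3 (-3.45), and 2 were higher, Cdkn1c at 2600 CPM (4.75) and Rb1 (2.37). In cycling MuSCs 2 of the 12 were lower, Notch3 (-1.64) and Sdc4 (-1.31), and Rb1 was higher (1.04). Of 6 paralogs of the members tested, 2 were higher and 1 lower in MOV. Rgs4 was at 93.8 CPM in sham and 23.7 CPM in MOV quiescent-marker MuSCs (-1.98, -2.46 to -1.49) while Rgs2 did not pass. Rgs3 was at 1.71 CPM in sham, from 1 UMI, and 13.9 CPM in MOV, and Layn had no UMI in sham and 8.82 CPM in MOV. Of the 3 hedgehog co-receptor genes tested, Boc was lower in MOV (-1.29, -2.05 to -0.47), with Gas1 near 0. Of the 7 immediate-early genes 2 were lower in MOV, Fosb (-1.75) and Egr1 (-1.05), named after their values were seen.

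Likeness of pattern was measured as Pearson's r of log2 CPM over 20 profiles, each a class of at least 10 cells in 1 library, among 11189 genes. These profiles share libraries and depth, so r is a description with no p. Pax7 was most like Iqsec3 (r = 0.948), Myf5 (0.935) and Pde1c (0.934), of which Myf5 was in the gate. Calcr was most like Chrdl2 (0.958), one of the quiescent-marker gate genes, then Edn3 (0.932). Hmcn2 was most like Hsd11b1 (0.952) and Dio2 (0.937), and Gas1 most like Plxdc2 (0.941). Chodl reached 0.876 with Zfp697, Cd34 0.918 with Mcc and Spry1 0.898 with Birc2. Foxo1 was most like Myo6 (0.923), Foxo3 most like Ids (0.915) and Rgs2 most like Dennd1b (0.877). Among the members themselves, Pax7 with Calcr and Gas1 with Foxo3 had the highest r, 0.78 each, and Pax7 with Cd34 the lowest, -0.18.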

How the data were processed

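Sorted VCAM+ cells of 1 sham and 1 MOV library were measured by 10x Genomics 3′ single-cell RNA sequencing. The authors aligned reads to mm10 with Cell Ranger 6.0.0, and the deposited filtered matrices hold raw UMI counts per gene and cell. A 3′ tag is counted once per molecule, so counts do not scale with transcript length, but they depend on how well each 3′ end is captured. No column of another sample was used (0). The matrices were read with Python 3.11.15, numpy 2.4.6, scipy 1.17.1 and pandas 2.3.3. A mitochondrial share of 10% or above removed a cell. Fibre droplets had at least 5% of UMIs in 12 adult fibre genes, other types at least 5 UMIs and 500 CPM of their markers and more UMIs than the myogenic genes, and Myog cells at least 3 UMIs and 500 CPM of Myog. States needed at least 3 UMIs of their gate genes. Part of the quiescent-marker gate is not reported here. Counts were summed per class and library, and ratios carry exact conditional 95% intervals. A ratio was past 2-fold if the log2 ratio reached 1 in size and its interval left out 0, over genes with at least 20 UMIs in the pair. The study's sort gated out doublets, and the study also removed those that DoubletFinder identified. No doublets were removed from the main values here. Removing those scored by simulated neighbours (0.542% of sham and 2.45% of MOV cells) was an alternative, as were the scalings of edgeR 4.0.16 and DESeq2 1.42.0. The method was tested on simulated data. Named genes were the 10 members, of each of 6 related lists (60 genes) the 3 largest ratios past 2-fold in each comparison, and the 3 genes most like each member. The members, gates and lists were chosen with earlier results of these data known. Gene positions and promoters are those of GRCm38.p6, the build of mm10.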

Additional observations from a re-analysis of the deposited data

Results flagged for a closer look

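Cells that passed the quiescent-marker cut but had fewer than 2 UMIs of Pax7, Myf5 and Myod1 together enter no comparison above, and they carried members of the set above the level of fibre droplets. In the 26 such sham cells Chodl was at 408 CPM (325 to 506) and Hmcn2 at 295 CPM (225 to 380), with a median depth of 7396 UMIs, and Pax7 was at 24.6 CPM. In the 107 such MOV cells Chodl was at 92.8 CPM (81 to 106) and Hmcn2 at 47 CPM (38.7 to 56.6), while Cd34 was at 175 CPM and Pax7 at 6.3 CPM. The signal stands in data that the report's comparisons left out, and the identity of these cells was not tested.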

How the results depend on the processing

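No paired analysis was possible because each condition is 1 library and the groups share fewer than 2 replicate numbers, and for the same reason no library could be left out. Of the alternative counts of members past 2-fold or of higher shares, 95 lay within 1.5 times the main count and 6 did not. The gate bands and the removal of shared barcodes were chosen after seeing the data. Between quiescent-marker MuSCs of the 2 libraries the count of 2 became 1 with the state cuts doubled (Hmcn2 at -0.94). It also became 1 with cells weighted equally (Hmcn2 at -0.97). In each of the 2 gate bands compared the count was 1: Hmcn2 lower at 500 to 1000 CPM, and Gas1 higher at 1000 CPM or more (1.04). Gas1 also became higher past 2-fold at a 5% mitochondrial limit (1.22), and with Pax7 out of the MuSC gate (1.35); the cause was not tested. In fibre droplets the count of 9 became 5 at the 5% limit, which left 17 quiescent-marker MuSCs and fewer members with 20 UMIs, 6 with Pax7 out of the MuSC gate, and 8 without the shared barcodes. Thinned to 2000 UMIs, 9 of 10 members had a higher share in sham than in MOV quiescent-marker MuSCs, and 4 when thinned to 1000 UMIs, so no order is read from the shares of sparse genes. The members past 2-fold kept a negative ratio in every alternative value computed (36 of 36 between quiescent-marker MuSCs, 80 of 80 for cycling, 64 of 64 for matrix, 112 of 112 for Myog cells, 96 of 96 for fibre droplets and 64 of 64 for all MuSCs). Over all MuSCs the count of 4 became 6 without the shared barcodes, a removal that took out 6 of the 10 sham cycling MuSCs. Foxo3 in Myog cells lay between -0.42 and -0.98 in the 7 alternatives that took it below 2-fold. TMM and median-of-ratios scaling moved all log2 ratios by -0.19 and -0.22 between quiescent-marker MuSCs and by 0.70 and 0.65 in fibre droplets. Depth limits the sparse genes: 11 to 15 sham UMIs stand behind Foxo3, Foxo1, Calcr and Rgs2.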
